A study of Mus musculus with 3 samples.

Results

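Epithelial junction and adhesion genes were examined in mouse embryonic stem (ES) cells without Tet1, the enzyme that oxidises 5-methylcytosine in DNA. The set holds 35 genes: 13 claudins, 5 other tight junction genes, 7 genes of cadherins, their catenin partners and Epcam, 7 desmosome genes and 3 gap junction genes. A gene was taken in when a spot that is not a control carried its symbol, or an accession or older synonym of it (Tacstd1 for Epcam). All 35 had a spot, out of 27670 gene names on the array, with 74 spots of 56 probes. Tested were genes with a probe that the scanner software flagged as well above background on any array, which left 30 of the 35 among 17707 genes tested.

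RNA was measured on 3 Agilent 1-colour (Cy3) arrays, with 1 sample each. The labels give 2 samples with the genotype Tet1 KO, numbered 4 and 22 (KO 4 and KO 22), and 1 sample with the genotype Tet1 WT. All 3 are of the cell line V6.5, on a mixed 129 and C57BL6 background, and were kept on irradiated feeders, the supporting cells of ES cultures, in medium with LIF, a cytokine that holds ES cells undifferentiated. RNA came from preplated cells, a step that lets feeder cells settle out. The design text counts the samples as mice, while the labels name a cell line, and whether numbers 4 and 22 stand for animals, clones or cultures is not settled by either. No treatment or time point differs between the genotypes, and wild type is a single sample.

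Claudins are membrane proteins that span the gap between neighbouring cells and set which ions and molecules pass a tight junction, with occludin beside them and the ZO proteins and cingulin as the cytoplasmic scaffold. Cadherins join cells through calcium-dependent contacts and are tied to actin by catenins, desmosomes tie keratin filaments of neighbouring cells together, and connexins form gap junction channels. ES cells are epithelial in character: they grow as compact colonies held by E-cadherin (Cdh1).

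Levels below are log2 processed intensities relative to the 75th percentile of each array, so 0 is that percentile. A difference is knockout minus wild type on this log2 scale, given with the standard error of limma (n = 2 knockout arrays against 1). Tet1 itself read 214 (KO 4), 195 (KO 22) and 721 (wild type) in intensity, a difference of -1.94 ± 0.09 that missed the threshold of 0.05 (limma adjusted p = 0.0527, from 9.76e-12 to 0.17 over the alternatives). The labels do not place this probe relative to the deleted part. Between 62.2% and 62.8% of the spots of each array were well above background, none was saturated, and all 3 arrays were on 1 slide and scanned together. The number of arrays limits the precision. Each p-value sets a difference from wild type against an error that comes only from how far KO 4 and KO 22 lie apart. In the reported fit, that error mixes the gene's own distance (1 degree of freedom) with a prior shared by all genes tested (2.03 degrees of freedom). Such distances may be technical, and the fit assumes that wild type varies like KO 4 and KO 22.

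Junction genes were more often higher than lower in the knockout samples, by small amounts, and no single one passed the test. Of the 30 tested, 22 lay above wild type on both knockout arrays, 4 below on both, and 4 had arrays on either side. A difference of any size was counted, so the 22 include Gja1, which rounds to 0.00 on KO 4. The same shares over all genes tested were 38.0% above and 45.5% below, against 73.3% and 13.3% of the junction genes. Their median difference was 0.21 on KO 4 and 0.20 on KO 22, where the median over all genes tested was -0.04 and -0.02. The KO 4 and KO 22 differences rest on the same wild type array, so an odd value there moves both. In RNA from whole cultures, fewer cells of a type and less RNA per cell cannot be told apart.

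Limma called 0 of the 30 higher and 0 lower, where it called 0.0339% of all genes tested higher and 0.322% lower. Without adjustment, 10 had a higher value and 1 a lower one at p below 0.05, and the shares over all genes were 13.2% and 15%. A difference of at least 1.5-fold upward on KO 4 and KO 22 alike was seen for 5 members (Cldn10, Ocln, Dsg2, Dsc2 and Cldn3), or 16.7%, beside 5.15% of all genes. None was at least 1.5-fold below on both, beside 4.41% of all genes. Cldn10 was tested only through its knockout values; among the 28 members well above background on each array, 4 (14.3%) were higher by this rule and 0 lower, beside 4.22% and 3.38% of all such genes. With a variance that follows the intensity (a trend in eBayes), limma called 8 higher and 1 lower, and 8.31% and 10.7% of all genes. The 8 were Ocln, Cldn3, Dsg2, Dsc2, Gjb5, Cgn, F11r and Cldn7, and the lower one was Cldn15.

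**Figure D1:**
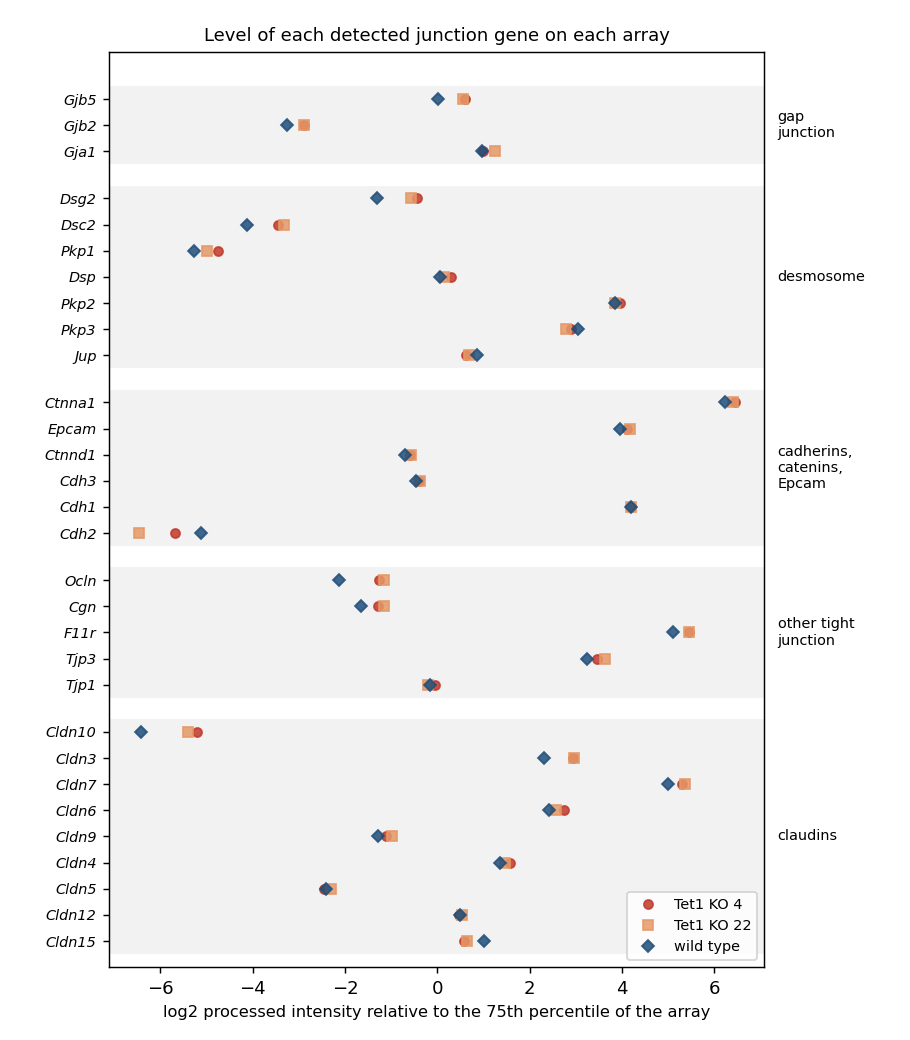
Level of the 30 tested junction genes on each array, as log2 processed intensity relative to the 75th percentile of that array (horizontal axis), with red circles for KO 4, orange squares for KO 22 and blue diamonds for wild type. Levels are to be read within a gene: for Ocln both knockout points (-1.26 and -1.16) lie right of wild type (-2.12), and for Cdh1 all 3 points coincide (4.20, 4.19 and 4.19).

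Claudins came first among the tight junction genes. Of the 13, 9 were tested, and 6 of these lay above wild type on both knockout arrays and 1 below. Cldn3, a barrier-forming claudin of many epithelia, had levels of 2.94 (KO 4) and 2.97 (KO 22) against 2.32 in wild type. Both knockout arrays thus lay above wild type, close to each other. The difference was 0.64 ± 0.09 or 1.55-fold (limma adjusted p = 0.102). It passed with the intensity trend (limma adjusted p = 0.00674), with the stricter filter that wants a probe above background on each array (0.0481) and in the series matrix values (0.0415), and its adjusted p ran from 1.9e-08 to 0.17 over the alternatives.

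Cldn10, which forms ion-selective pores, was a dim gene. It read 19.5 (KO 4) and 15.4 (KO 22) in intensity, both well above background, and 7.31 in wild type, which was not. A bound was therefore computed, which sets the knockout mean against the higher of the wild type value and the lowest value well above background on that array. By it Cldn10 was 1.63-fold higher in the knockout samples, with group means of -5.30 and -6.41 (limma adjusted p = 0.1). This is not a strict minimum. On the wild type array the lowest value well above background was 9.75, yet Cldn23 at 13.5 was not well above background. Its difference of 1.12 fell to 0.59 in the series matrix values and to 0.11 with normexp background correction without spots dimmer than their background.

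Cldn7, which is found along the lateral membrane as well as in tight junctions, had intensities of 28064, 26629 and 19996. Its difference was 0.33 ± 0.10 (limma adjusted p = 0.166), and 0.0369 with the intensity trend, in a range from 1.92e-07 to 0.218. Cldn6, a claudin of early embryonic epithelium and pluripotent cells, had 2.75 and 2.57 against 2.41. Its genomic neighbour Cldn9 had -1.11 and -0.99 against -1.28, so both differed little, by 0.25 ± 0.13 and 0.23 ± 0.10. On build mm7, the one in the files, their probes lie 1082 bases apart on chromosome 17 (21861935 to 21861994 and 21863076 to 21863135).

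Cldn3 and Cldn4 are neighbours too, with probes 41.8 kb apart on chromosome 5 of mm7 (133958589 to 133958648 and 133916757 to 133916816). Cldn4, also a barrier claudin, had levels of 1.57 and 1.47 against 1.35. Its difference of 0.17 ± 0.10 (limma adjusted p = 0.353) was smaller than that of Cldn3. The difference between these genes was not tested.

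The remaining claudins showed no shared upward difference. Cldn15, a pore-forming claudin of the gut, was the only claudin below wild type on both arrays, with 0.57 and 0.65 against 1.01. The difference was -0.40 ± 0.10 (limma adjusted p = 0.141), and it passed with the intensity trend (limma adjusted p = 0.0281, range 0.0281 to 0.342). Cldn12 had 0.46 and 0.54 against 0.50, and Cldn5, the claudin of endothelial barriers, -2.46 and -2.30 against -2.40. For both, wild type lay between the knockout arrays. Cldn1, Cldn2, Cldn11 and Cldn18 were not well above background on any array, with intensities from 1.94 to 8.79.

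By the probe that stood for each gene, occludin gave the highest difference among the members with a measured level on every array. Ocln, a 4-span membrane protein of the tight junction, had intensities of 299 on KO 4, 288 on KO 22 and 144 on wild type. Its levels were -1.26 and -1.16 against -2.12. The knockout arrays differed from each other by far less than from wild type. The difference was 0.90 ± 0.10 or 1.87-fold, above that of 96.9% of the genes tested (limma adjusted p = 0.0998). It passed with the intensity trend (limma adjusted p = 0.00767), with the stricter filter (0.0422) and in the series matrix values (0.0313), and ran from 0.000396 to 0.17. A second, dimmer Ocln probe was also higher on both arrays, by 0.36 and 0.47, and was not well above background on the wild type array. The probes lie on chromosome 13 of mm7, at 97585859 to 97585918 and 97627594 to 97628787. Averaged over them, the difference was 0.66, below the 0.89 of Dsc2 averaged over its own probes.

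F11r, which encodes the junctional adhesion molecule JAM-A, had levels of 5.45 on both knockout arrays against 5.10. The difference was 0.35 ± 0.09 (limma adjusted p = 0.142, and 0.0253 with the intensity trend). Cgn, the cytoplasmic protein cingulin, had -1.28 and -1.15 against -1.66, a difference of 0.45 ± 0.11 (limma adjusted p = 0.141, and 0.0428 with the trend). Over all alternatives the adjusted p ran from 3.72e-07 to 0.186 for F11r and from 0.0183 to 0.21 for Cgn. The 3 probes of Cgn all lay above wild type but disagreed in size, with mean differences of 0.45, 1.04 and 0.28. On the last of these KO 4 was 0.49 and KO 22 only 0.07 above wild type.

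Of the ZO scaffold genes in the set, Tjp3 lay above wild type on both knockout arrays and Tjp1 lay close to it. Tjp3 (ZO-3) had 3.45 and 3.64 against 3.24, a difference of 0.31 ± 0.13 (limma adjusted p = 0.242). It passed with normexp without dim spots (limma adjusted p = 0.0427), in a range from 1.31e-06 to 0.351. Tjp1 (ZO-1) had -0.05 and -0.21 against -0.15, so wild type lay between the knockout arrays. Its 2 probes differed in sign but by little, at 0.03 and -0.01.

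**Figure D2:**
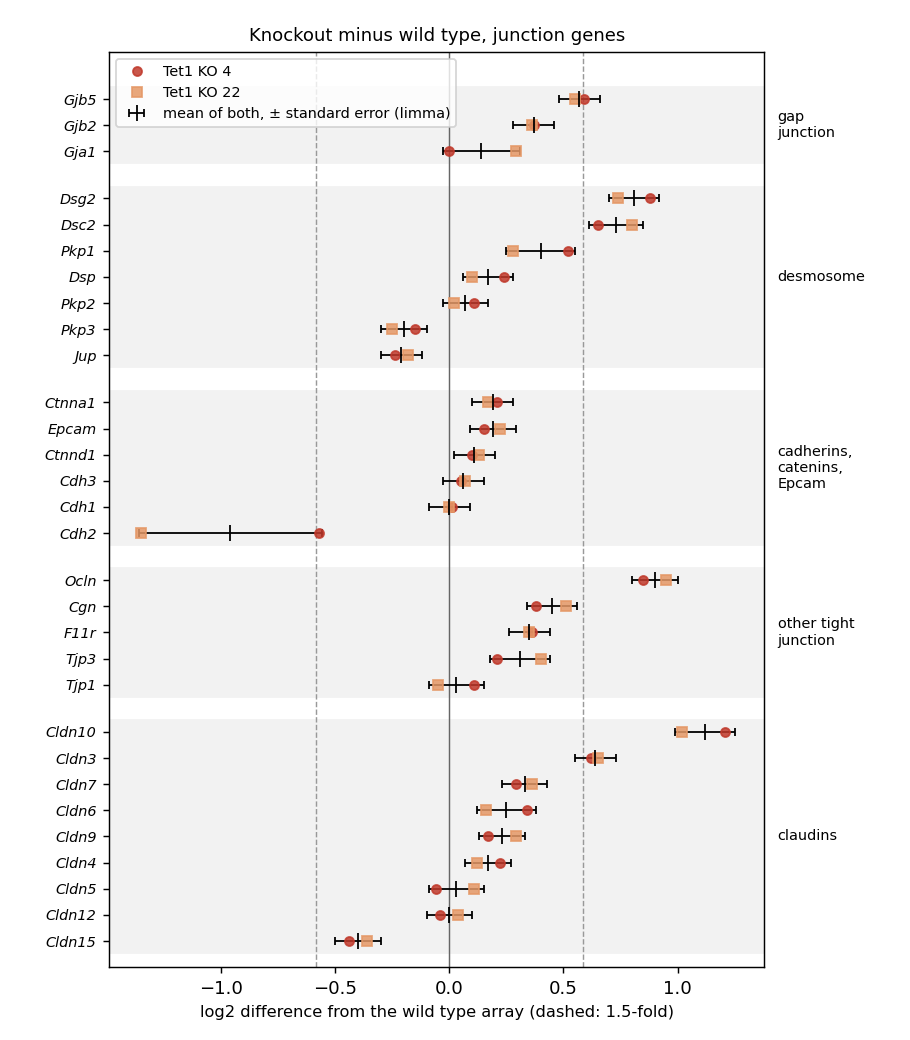
Difference of each knockout array from the wild type array for the 30 tested junction genes (log2 scale, horizontal axis), with red circles for KO 4, orange squares for KO 22, and a black tick with bars for their mean ± standard error from limma. Points of 5 genes lie beyond the dashed 1.5-fold line on the right for both arrays; with normexp background correction on all spots, 3 of these (Cldn10, Ocln and Dsc2) changed sign.

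Of the adherens junction genes, Cdh1 differed between arrays by less than its repeated spots scatter. It is measured by 10 spots of 1 probe on each array, which shows how far spots of the same RNA scatter. Its levels over these spots had a mean of 4.20 (SD 0.11) on KO 4, 4.19 (SD 0.05) on KO 22 and 4.19 (SD 0.09) on wild type, where the SD is over spots and not over samples. The median intensities were 13309, 11766 and 11563. Taken spot by spot, KO 4 minus wild type ranged from -0.07 to 0.08 and KO 22 minus wild type from -0.10 to 0.14. The fitted difference was 0.00 ± 0.09 (limma adjusted p = 0.99, from 0.000214 with normexp on all spots to 0.99). The probe lies on chromosome 8 of mm7 (105268557 to 105268616).

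Also in this group are Cdh3 (P-cadherin), Epcam, Ctnna1 (alpha-catenin) and Ctnnd1 (p120-catenin, which holds cadherins at the membrane). Their differences were 0.06 ± 0.09, 0.19 ± 0.10, 0.19 ± 0.09 and 0.11 ± 0.09, with limma adjusted p-values from 0.283 to 0.692. Both knockout arrays were above wild type for all 4, by at most 0.22. A second probe matched to Ctnna1 through a synonym (2010010M04Rik) stood 0.70 higher on each knockout array, unlike the reference probe at 0.21 and 0.17.

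Cdh2, the N-cadherin of mesenchymal and neural cells, had the lowest difference of the set but was barely measured. It read 14 (KO 4), 7.33 (KO 22) and 18.1 (wild type) in intensity, and the KO 22 value was not well above background. The difference was -0.96 ± 0.40 (limma adjusted p = 0.241), with differences of -0.57 on KO 4 and -1.35 on KO 22. The other 2 Cdh2 probes, and both probes of Cdh5 (VE-cadherin of endothelium), were not well above background on any array.

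Among desmosome genes the cadherins had the highest differences. Dsg2 (desmoglein 2) had levels of -0.43 and -0.57 against -1.30. The difference was 0.81 ± 0.11 or 1.75-fold (limma adjusted p = 0.102), with 0.00891 under the intensity trend, 0.0455 with the stricter filter, 0.0364 in the series matrix values, and a range from 0.00014 to 0.172. Its 4 measured probes were all higher on both knockout arrays, but the other 3 by only 0.29 to 0.42, and averaged over probes the difference was 0.45.

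Dsc2 (desmocollin 2), the other desmosomal cadherin of the set, had intensities of 65 on KO 4, 65.1 on KO 22 and 36 on wild type. Its levels of -3.46 and -3.31 lay above the -4.11 of wild type. The difference was 0.73 ± 0.12 or 1.66-fold (limma adjusted p = 0.107, and 0.0411 with the intensity trend, range 1.6e-09 to 0.179). The lowest of these came with normexp on all spots, where the difference turned to -1.23. It was 0.55 in the series matrix values and 0.30 with normexp without dim spots (limma adjusted p = 0.067 and 0.0703). The other Dsc2 probes differed by 0.79 and 1.14, the latter against a wild type value not well above background. The Dsg2 and Dsc2 probes lie 568 kb apart on chromosome 18 of mm7 (20974462 to 20974521 and 20405900 to 20406485).

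The cytoplasmic plaque genes showed smaller differences of both signs. Dsp (desmoplakin), which binds keratin, had 0.29 and 0.15 against 0.05. Jup (plakoglobin) had 0.62 and 0.68 against 0.86, and Pkp3 (plakophilin 3) 2.89 and 2.79 against 3.04, both below wild type on both arrays by 0.25 or less. Pkp2 differed by 0.07 ± 0.10 and the dim Pkp1 by 0.40 ± 0.15. Limma adjusted p-values of these 5 ran from 0.21 to 0.696.

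**Figure D3:**
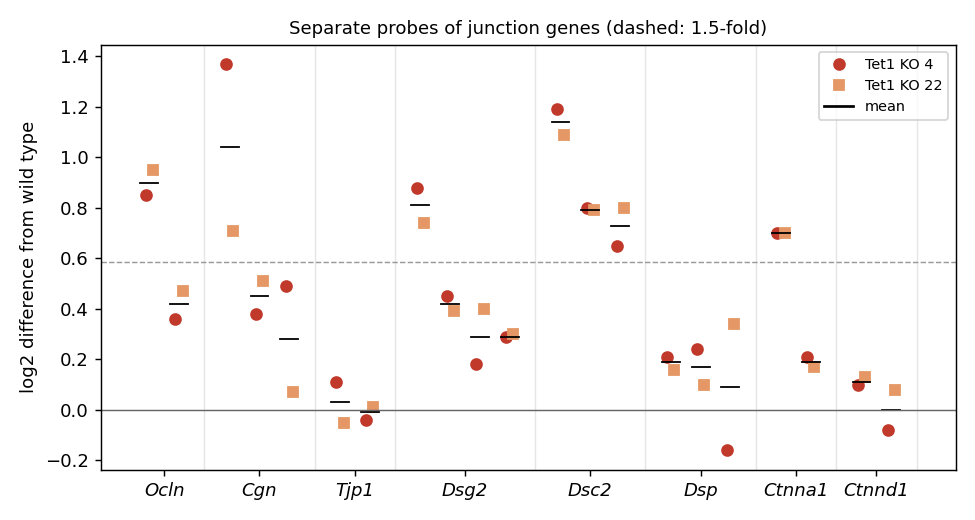
Separate probes of the 8 genes with 2 or more measured probes, as the log2 difference of KO 4 (red circles) and KO 22 (orange squares) from wild type, with the mean as a black line. Every probe of Dsc2 lies above the dashed 1.5-fold line (its highest one, and the lower one of Ocln, against a wild type value not well above background), while for Ocln, Dsg2, Cgn and Ctnna1 only 1 probe each does.

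Gap junction genes were all above wild type on average. Gjb5, a connexin of trophoblast and skin, had levels of 0.61 (KO 4) and 0.56 (KO 22) against 0.01 in wild type. Both knockout arrays lay clear of wild type, just inside and just outside a 1.5-fold change. The difference was 0.57 ± 0.09 or 1.49-fold (limma adjusted p = 0.107), and it passed with the intensity trend (0.0116) and in the series matrix values (0.0471), in a range from 7.56e-05 to 0.172. Gjb2 (connexin 26) had -2.88 and -2.89 against -3.25, a difference of 0.37 ± 0.09 (limma adjusted p = 0.138), and a second Gjb2 probe was not well above background on any array.

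Gja1 (connexin 43), a connexin abundant in ES cells, differed between the knockout samples. Over its 10 spots the level had a mean of 0.98 (SD 0.04) on KO 4, 1.26 (SD 0.08) on KO 22 and 0.97 (SD 0.07) on wild type. KO 22 lay above wild type in 10 of 10 spots, by 0.18 to 0.39, and KO 4 in 5 of 10, by -0.05 to 0.06. The spots are technical repeats of 1 array, so this compares arrays and not genotypes. The fitted difference was 0.14 ± 0.17 (limma adjusted p = 0.612).

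**Figure D4:**
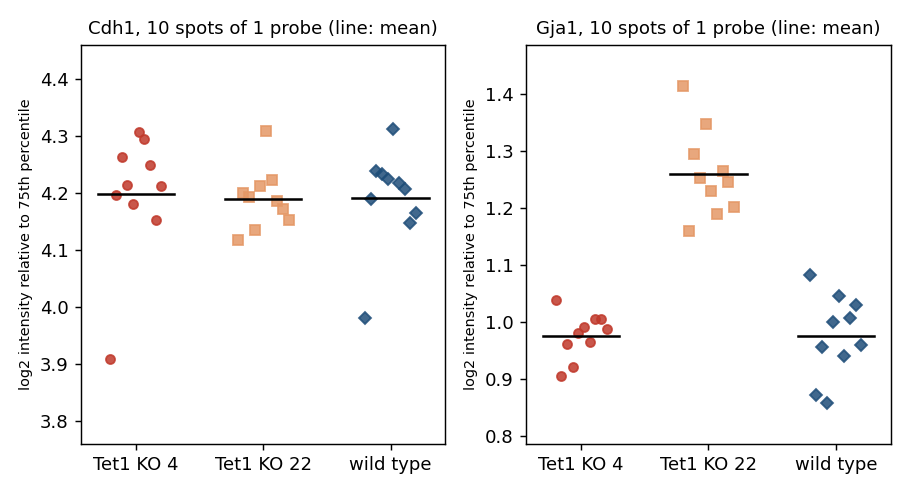
The 10 spots of the Cdh1 probe (left) and of the Gja1 probe (right) on each array, as log2 intensity relative to the 75th percentile, with the mean as a black line. For Cdh1 the 3 clouds overlap, and for Gja1 the lowest KO 22 spot (1.16) lies above the highest spots of KO 4 (1.04) and wild type (1.08).

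The wider junction list holds 73 other genes of the same structures and of their regulators. Of these 72 had a probe and 55 were tested, with 33 (60%) above wild type on both knockout arrays and 12 (21.8%) below, beside the 38.0% and 45.5% of all genes. Limma called 0 higher and 0 lower, and 12 higher (21.8%, beside 8.31% of all genes) and 0 lower with the intensity trend. Without adjustment, 14 (25.5%, beside 13.2%) lay above and 1 (1.82%, beside 15%) below at p under 0.05. On KO 4 and KO 22 alike, 8 genes (14.5%, beside 5.15%) were at least 1.5-fold higher and 0 lower. Among these 8, Cldn23 was tested only through its knockout values, and it is also in the 12 and the 14. The wider list was not counted again with genes well above background on each array only. Over the 55 genes, the median difference was 0.16 on KO 4 and 0.12 on KO 22.

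These 8 were also the genes with the highest absolute differences in the list. Among membrane proteins, Nectin1, an adhesion receptor that recruits cadherins, had levels of 1.71 and 1.64 against 0.81, a difference of 0.87 ± 0.09 (limma adjusted p = 0.098). Marveld2 (tricellulin), a relative of occludin at corners where cells meet, had 0.34 and 0.35 against -0.31, and differed by 0.65 ± 0.09. Perp, a desmosome protein first known as a p53 target, had 3.26 and 3.07 against 2.19, and differed by 0.97 ± 0.13. All 3 genes had both knockout arrays well above the wild type value.

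Cldn23 was higher by 1.20 ± 0.18 or 2.29-fold, with levels of -4.50 and -4.18 against -5.53, but was not well above background on the wild type array. The bound used for Cldn10 left this value unchanged, so it is not a minimum. The Cldn23 difference was 0.79 in the series matrix values and 0.21 with normexp without dim spots. The connexin gene Gja4 differed by 0.84 ± 0.10, the polarity gene Llgl2 by 0.84 ± 0.12 and Ppl (periplakin) by 0.71 ± 0.11. None of these named genes passed (limma adjusted p from 0.098 to 0.107). With the intensity trend each passed, Cldn23 only against a wild type value that was not well above background. Gja4 turned to -0.35 and Cldn23 to -1.74 with normexp on all spots.

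The regulators of the epithelial programme in that list had a median difference of 0.06, with 6 of 13 above wild type on both arrays and 4 below. These shares were 46.2% and 30.8%, beside 38.0% and 45.5% of all genes, and 0 lay at least 1.5-fold away on both arrays. The 7 tight junction genes of the list had a median of -0.03, with 1 above on both arrays, 2 below and 4 with arrays on either side. The E-box binding repressors of epithelial genes among the regulators were chosen here after their values were seen, and they differed in sign. Snai1 had -1.42 and -1.66 against -1.16, a difference of -0.38 ± 0.15, and Zeb1 had -2.57 and -2.52 against -2.16, a difference of -0.38 ± 0.09 (limma adjusted p = 0.217 and 0.14). Neither passed with the intensity trend (limma adjusted p = 0.0949 and 0.0909). Zeb2 differed by 0.52 ± 0.26, Twist1 by 0.34 ± 0.10 and Snai2 by 0.03 ± 0.15, and none of these passed (limma adjusted p = 0.293, 0.165 and 0.902). Zeb2 was dim, at intensities of 22.8 (KO 4), 14.6 (KO 22) and 11.7 (wild type). With normexp without dim spots Zeb2 fell to 0.03, Twist1 to 0.13 and Snai2 to -0.01, while Snai1 was at -0.33 and Zeb1 at -0.29. There Snai1 passed and Zeb1 did not (limma adjusted p = 0.0446 and 0.0753). With normexp on all spots Zeb2 (-1.93), Twist1 (-1.12) and Snai2 (-0.83) turned below wild type, where Snai1 (-0.67) and Zeb1 (-1.07) also lay. All of these were called lower in that setting (limma adjusted p at most 1.7e-05), beside 48.7% of all genes.

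Promoter windows describe the sequence of a part of the members. A window runs from 250 bases before to 50 after an annotated start, from RefSeq on build GRCm38.p6, taking the most upstream start of a gene. Windows were matched for 24 of the 35 members, 20 of them tested. None was matched for Cldn9, Cdh1, Cdh2, Cdh3, Cdh5, Ctnna1, Dsg2, Dsc2, Pkp1, Pkp2 and Pkp3. The values below thus leave out all cadherins of the set, with Dsg2 and Dsc2 among them. Tet1 binds CpG-rich DNA through its CXXC domain, and the E-box CAGGTG, which reads CACCTG on the other strand, is the motif of the Snail and Zeb repressors. The observed over expected ratio of CpG had a median of 0.51 in the 20 tested members and 0.74 in the 11655 tested genes with a window. It ran from 0.14 for Gjb5 to 0.97 for Tjp1. Across the 20 genes, which share arrays and are not replicates, it correlated with the difference at r = -0.13 (Spearman's rho = -0.18). An E-box on either strand was found in 9 of the 20 (45%), beside 18.9% of the tested genes with a window and 20% of all 27025. These are matches of letters and not sites of binding.

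Printed are the windows of Ocln (chr13:100552669-100552968, minus strand) and Cldn3 (chr5:134985964-134986263, plus strand), which, among the members with a matched window, have an E-box and were at least 1.5-fold higher on both arrays. Those of Cldn4 (chr5:134946885-134947184, minus strand) and Cldn6 (chr17:23679115-23679414, plus strand) have 2 E-boxes each and small differences. Gjb5 (chr4:127358115-127358414, minus strand) has none, and the lowest CpG ratio. Each reads 5′ to 3′ along the gene, with E-boxes in capitals.
Ocln: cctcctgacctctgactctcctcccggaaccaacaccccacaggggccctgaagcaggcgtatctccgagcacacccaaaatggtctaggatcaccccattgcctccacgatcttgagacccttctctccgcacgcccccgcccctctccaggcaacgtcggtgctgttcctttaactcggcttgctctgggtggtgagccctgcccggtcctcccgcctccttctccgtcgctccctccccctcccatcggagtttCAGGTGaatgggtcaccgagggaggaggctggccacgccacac
Cldn3: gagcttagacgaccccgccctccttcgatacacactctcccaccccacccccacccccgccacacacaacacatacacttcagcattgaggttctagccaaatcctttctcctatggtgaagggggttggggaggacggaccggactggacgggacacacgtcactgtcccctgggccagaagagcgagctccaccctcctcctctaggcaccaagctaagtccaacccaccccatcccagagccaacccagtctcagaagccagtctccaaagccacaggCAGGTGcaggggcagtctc
Cldn4: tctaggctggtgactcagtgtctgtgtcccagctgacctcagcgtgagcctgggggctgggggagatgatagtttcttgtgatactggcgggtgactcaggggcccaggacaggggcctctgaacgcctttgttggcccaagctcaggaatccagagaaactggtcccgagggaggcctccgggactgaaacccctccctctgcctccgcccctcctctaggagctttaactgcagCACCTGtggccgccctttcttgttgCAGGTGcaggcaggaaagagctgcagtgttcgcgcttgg
Cldn6: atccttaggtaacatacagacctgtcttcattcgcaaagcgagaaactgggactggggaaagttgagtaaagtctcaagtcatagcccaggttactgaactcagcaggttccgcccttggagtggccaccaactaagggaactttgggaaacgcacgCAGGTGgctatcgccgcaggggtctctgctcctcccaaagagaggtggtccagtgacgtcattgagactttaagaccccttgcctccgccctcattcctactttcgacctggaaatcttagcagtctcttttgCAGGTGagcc
Gjb5: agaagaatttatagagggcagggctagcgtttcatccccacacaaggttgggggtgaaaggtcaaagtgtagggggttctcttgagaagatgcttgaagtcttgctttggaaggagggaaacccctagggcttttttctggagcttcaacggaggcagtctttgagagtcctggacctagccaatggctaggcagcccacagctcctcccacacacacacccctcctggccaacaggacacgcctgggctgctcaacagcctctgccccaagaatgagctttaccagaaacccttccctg

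The E-box begins 7 bases after the start base in Ocln and 31 after it in Cldn3. Those of Cldn4 begin 14 bases before and 11 after the start, and those of Cldn6 93 before and 40 after. The differences beside these windows were 0.90 for Ocln, 0.64 for Cldn3, 0.17 for Cldn4, 0.25 for Cldn6 and 0.57 for Gjb5. These genes were picked by window and difference together, so they show nothing of a relation of motif and difference.

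Markers of cell types were set beside these differences. The 6 ES cell markers were all measured, 3 above wild type on both knockout arrays and 3 below, with medians of 0.04 and 0.05 and sums of intensity, in units of the 75th percentile, of 217 on KO 4, 217 on KO 22 and 203 on wild type. Of 9 trophoblast markers 8 were measured and all 8 lay above wild type on both knockout arrays, with medians of 0.84 and 0.86; their sums were 231, 203 and 128, and Elf5 was not well above background. Keratins Krt8, Krt18 and Krt7, which other simple epithelia also make, hold most of these sums, which were 8.23, 8.28 and 6.73 without them. All 6 measured primitive endoderm markers of 8 lay below wild type, with sums of 0.812, 0.748 and 2.36, and Afp and Ttr were not detected. Fibroblast markers, which feeder cells carry, were all 10 measured, with sums of 8.56, 6.09 and 6.51 and medians of 0.85 on KO 4 and -0.06 on KO 22. Thy1, the brightest of them, weighs most in these sums, and it alone lay below wild type on both arrays (-0.14 and -0.30). Of the other fibroblast markers, 4 lay above on both and 5 had arrays on either side. The median of the junction genes was 0.21 on KO 4 and 0.20 on KO 22. Of 6 endothelial markers 3 were measured, with sums of 1.36, 1.62 and 1.82, and Kdr, Tie1 and Emcn were not detected. The part of fibroblasts, trophoblast, primitive endoderm and endothelial cells in the junction gene differences was not tested.

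The number of junction genes called changed with how the values were made. With only probes well above background on all arrays, limma called 3 of 28 higher (Ocln, Cldn3 and Dsg2) and 0 lower, beside 3.12% and 2.54% of all genes. In the series matrix values it called 4 higher, these 3 and Gjb5, and 0 lower, beside 3.5% and 3.49%. Normexp without 8 wild type spots dimmer than their background gave 8 higher and 1 lower, beside 7.72% and 10.7%. Normexp on all spots, with those 8, gave 13 higher and 8 lower, beside 29.4% and 48.7%, and moved the median of all genes to -0.20. There Ocln (-0.30), Cgn (-0.27), Dsc2 (-1.23), Gjb2 (-1.10) and Cldn10 (-1.92) were below wild type, while Cldn3 (1.03) and Gjb5 (0.58) stayed above it.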

How the data were processed

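Arrays were read with Agilent Feature Extraction 10.1.1.1, per the file headers. Per the file headers, the software subtracted background and removed spatial trends to give the deposited processed intensity, and put a surrogate where a spot was dim. The deposited series matrix holds log2 values. Its columns share a median of 5.52 and their sorted values differ by at most 0.011, so they were equalised between arrays; what was done about background is unknown. Limma is listed, without a version, in the submitters' processing notes.

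Here, the 75th percentile of 43379 non-control spots was subtracted, per array, from the log2 processed intensities. The 204 spots with an outlier flag on any array were left out, none of them of a member, and repeated spots were averaged. Of 41174 probes, 79.5% found a gene in the RefSeq table (GRCm38.p6), used for names and promoter windows; probe positions are those of the files, on mm7. The probe with the highest mean among those well above background on at least 1 array stood for its gene. Knockout was tested against wild type by limma 3.58.1 under R 4.3.3 (lmFit, eBayes, Benjamini-Hochberg over all genes, threshold 0.05), with 1 residual degree of freedom and 3.03 after moderation toward a prior SD of 0.09, so an error of 0.09 is a shared minimum. The fit was tested on simulated data.

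The members, the lists, the alternatives and the rule for named genes were chosen with earlier results of these data known. By that rule all 35 members are accounted for, those at least 1.5-fold from wild type on both knockout arrays get values on every array with the test, probes are given where they disagree, and the 8 genes of the wider list with the highest absolute difference and both arrays above, or both below, wild type are named, except 1 that is not reported here. Alternatives covered background correction, normalization, source of values, filter, variance model, choice of probe, clustered bright spots (2 or more spots within 2 rows and columns at least 4-fold brighter on 1 array) and each knockout array left out.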

Additional observations from a re-analysis of the deposited data

How the results depend on the processing

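The count of calls changed with several choices. Junction genes called higher were 0 as reported, 8 with an intensity trend, 3 with the filter on all 3 arrays, 4 in the series matrix values, 8 with normexp without the 8 dim spots and 13 with normexp on all spots; genes called lower were 1, 0, 0, 1 and 8. Quantile normalization, no filter, the mean over probes and leaving out spots beside clustered bright spots called 0 in each direction, as reported. Genes at least 1.5-fold higher on both arrays were 5, or 2 with normexp without dim spots, 3 in the series matrix values, 4 with the filter on all 3 arrays, 4 with the mean over probes and 6 with normexp on all spots; those lower were 0, or 6 with normexp on all spots, 1 with quantile normalization and 1 without a filter. Of the reported 5, Cldn10, Ocln and Dsc2 turned below wild type with normexp on all spots and Dsg2 fell to 0.23. None of these is among the 6, which are thus largely other genes. The junction gene median of 0.19 became 0.16 with normexp without dim spots and 0.22 with quantile normalization. It became 0.17 without a filter and 0.21 with the mean over probes. Without 1 knockout array it was 0.20 to 0.21, with 5 to 6 genes higher and 0 to 1 lower, and no test was possible at 1 against 1; the wild type array cannot be left out.

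Signs turned with normexp on all spots for 12 genes: Cldn5 (-0.92), Cldn9 (-0.21), Cldn10 (-1.92), Cldn12 (0.17), Ocln (-0.30), Cgn (-0.27), Cdh3 (-0.06), Dsc2 (-1.23), Pkp1 (-1.91), Pkp3 (0.32), Gjb2 (-1.10) and Ctnnd1 (-0.14). Without the 8 dim spots, Cldn5 (0.00), Cldn12 (0.01) and Pkp1 (-0.04) turned, and in the series matrix values Cldn12 (0.01). Tjp1 was at -0.05 without KO 4 and Cldn5 at -0.06 without KO 22. No paired analysis was possible because the groups share no replicate numbers. Signal over background limits Cldn10, Cdh2, Pkp1 and the 5 genes not detected.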
